A study of Mus musculus with 9 samples.

Results

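Gm10800, Gm26917 and Gm23935 are the 3 nuclear gene models among the 5 genes with the highest summed count over all 9 libraries of a table of 52636 mouse genes. The sums chose them and are given only as a description: 2888413 counts for Gm10800 (4.36% of all counts), 1944307 for Gm26917 (2.93%) and 1727999 for Gm23935 (2.61%). Above them stood the mitochondrial ribosomal RNAs mt-Rnr2 with 7040911 and mt-Rnr1 with 4011254 counts. Just outside the 5 stood Malat1, a nuclear long noncoding RNA, with 1145673. The question was how far the share of total counts held by each of these gene models differed between libraries and between groups.

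All 9 libraries were made from sorted cells of male C57BL/6 mice. The tissue was the nucleus accumbens, a reward centre of the brain, and the sort took cells that bound a fluorescent antibody to ChAT, the acetylcholine-making enzyme that marks cholinergic interneurons. The groups titled RES and SUS (3 libraries each) came from mice that gave themselves cocaine at 1.2 mg/kg per infusion. They had up to 40 infusions on a fixed ratio schedule, followed by progressive ratio sessions of 23 h on 10 days, and were killed for tissue on day 3 after those sessions ended. The third group held 3 libraries of drug-naive mice, given as WT in the labels and called naive here. The behavioural phenotype field calls RES susceptible and SUS resilient, against their titles, so RES and SUS are used here only as titles, with no behaviour read into them. Punches were pooled from 2 to 3 mice per condition, and no label says that each library had its own pool. The p-values therefore measure only the spread between these libraries, which may be technical.

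Much of a mammalian genome consists of sequence present in many copies. In the mouse, major satellite DNA forms long tandem arrays beside the centromeres and is packed into heterochromatin, and ribosomal DNA repeats are transcribed in the nucleolus to give the RNA of the ribosome. Both are mostly missing from assembled chromosomes, where short remnants can carry the name of an ordinary gene. A read from any of the many copies can then be assigned to the one remnant that was assembled. The counts below are therefore counts assigned to a gene model, and neither the copy a read came from nor its origin in RNA or genomic DNA was measured.

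Gm10800 (ENSMUSG00000075014) is annotated as protein-coding on chromosome 2 at chr2:98666547-98667301 of GRCm38, minus strand. Its 660 exonic bases lie in 5 exons, it starts with ATG, it ends without a stop codon, and its 4 introns are 1 to 65 bases long. Its GC content was 35.9%, and 3.32% of gene models had a lower one. The longest exon (306 bases) holds a tandem repeat: shifted by 234 bases, 67 of 72 bases matched (93.1%). Its first 234 bases are shown because they are the repeat unit, with capitals for bases inside a 25-base run found in another gene model (chr2:98666807-98667040). The 72 bases at the start and the 72 bases at chr2:98666735-98666806, 1 unit further on, follow as copy 1 and copy 2, with the 5 bases that differ in capitals.
Gm10800 unit: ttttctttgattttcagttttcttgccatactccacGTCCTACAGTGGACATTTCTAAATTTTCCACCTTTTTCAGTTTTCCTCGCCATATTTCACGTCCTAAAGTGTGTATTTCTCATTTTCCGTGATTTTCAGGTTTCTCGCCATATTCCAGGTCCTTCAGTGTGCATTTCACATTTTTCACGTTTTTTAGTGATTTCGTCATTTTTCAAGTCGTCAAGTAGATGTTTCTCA
copy 1: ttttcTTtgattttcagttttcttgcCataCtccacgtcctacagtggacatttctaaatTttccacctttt
copy 2: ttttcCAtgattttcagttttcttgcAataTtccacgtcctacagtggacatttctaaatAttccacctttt
The transcript sequences are those of GENCODE mouse release 21, each written 5′ to 3′ on the strand of its gene model. Of the 234 bases, 198 are in capitals. 12 other gene models on chromosomes 2, 9 and 14 share 25-base runs with Gm10800 and together had 737575 counts. The most counted were Gm21738 on chromosome 14 (308896 counts, 22.2% of its 25-base runs shared) and Gm10801, which lies 2464 bases from Gm10800 (260805 counts, 35.1% shared). No model shares more of its runs than Gm10801.

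Gm23935 (ENSMUSG00000076258) is annotated as a miRNA of 57 bases on chromosome 16 at chr16:11144125-11144181, plus strand. It lies in an intron of Zc3h7a, which encodes a zinc finger protein and runs on the opposite strand. The same 57 bases occur in 2 further gene models annotated as miRNAs, Gm24270 at chr9:56223715-56223771 on the minus strand and Gm24245 at chr4:139338304-139338360 on the plus strand. A run of 46 of them occurs in Gm24187 at chr13:9834469-9834525 on the minus strand. They are shown because reads inside the shared run cannot be told apart. Capitals mark the longest run shared with Gm23935.
Gm23935: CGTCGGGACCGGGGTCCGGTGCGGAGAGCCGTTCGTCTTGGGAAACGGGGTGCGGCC
Gm24270: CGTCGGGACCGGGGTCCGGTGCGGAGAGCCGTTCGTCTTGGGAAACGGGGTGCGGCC
Gm24245: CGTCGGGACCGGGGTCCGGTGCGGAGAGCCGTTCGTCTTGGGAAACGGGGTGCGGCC
Gm24187: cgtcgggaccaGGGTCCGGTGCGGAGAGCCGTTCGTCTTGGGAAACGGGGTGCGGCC
The GC content of Gm23935 was 73.7%, which 0.121% of gene models exceeded. None of the models that share its sequence is annotated as ribosomal RNA, and a complete ribosomal DNA unit was not used here, so whether these 57 bases match one was not tested. As the annotated length is far below that of most genes, its count per kb is not comparable with a messenger RNA.

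Gm26917 (ENSMUSG00000097971) is annotated as a long intergenic noncoding RNA of 3329 bases in 1 exon on chromosome 17 at chr17:39843013-39846341, plus strand. Its GC content was 69.1%, which 0.278% of gene models exceeded, and it holds 372 CG dinucleotides, 0.936 of the number its base composition gives. It shares no 25-base run with another annotated gene model. Its last 240 bases, chr17:39846102-39846341, are shown because the annotation names a ribosomal RNA model just beyond them, with the 33 CG dinucleotides in capitals.
Gm26917 end: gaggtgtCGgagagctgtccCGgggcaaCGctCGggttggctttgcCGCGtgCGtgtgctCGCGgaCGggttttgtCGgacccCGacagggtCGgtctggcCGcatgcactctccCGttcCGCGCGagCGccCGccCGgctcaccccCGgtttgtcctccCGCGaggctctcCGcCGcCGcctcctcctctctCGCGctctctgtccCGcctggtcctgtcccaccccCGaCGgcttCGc
CT010467.1, annotated as rRNA on the minus strand, lies 12 bases beyond this end, and RefSeq places Rn18s-rs5, a pseudogene related to 18S ribosomal RNA, at chr17:39846354-39848202. The repeat-like label was thus borne out by sequence for Gm10800 (a tandem repeat) and Gm23935 (identical copies elsewhere). For Gm26917 it rests on its position and base composition alone.

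The neighbours of Gm26917 and Gm23935 had far fewer counts than these 2 models, unlike Gm10801 beside Gm10800, with 260805. CT010467.1 had 61 to 1292 counts per library, against 106824 to 414447 for Gm26917. Gm42418 and AY036118 had 0 counts in each of the 9 libraries. This limits their share to 6.71e-05% in the shallowest only if reads on them were counted at all. Of their exonic bases, 1822 of 1831 and 923 of 923 lie inside exons of CT010467.1, and how reads over 2 gene models or several genomic sites were counted is not given in the sources used here. Near Gm23935, Zc3h7a had 265 to 822 counts per library and Txndc11, a thioredoxin-domain gene 9475 bases away, had 209 to 581. Gm23935 itself had 44725 to 373452. Without a stated strand setting, reads on its 57 bases could not be assigned to 1 strand.

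Total counts were 4574518 to 6895457 in RES, 8081639 to 11155730 in SUS and 4471675 to 10667056 in naive libraries. Mitochondrial genes held 9.09% to 28.7% of counts. The summed level of 7 cholinergic markers was 53.7, 68.4 and 130 CPM (counts scaled to a common library total) in RES libraries, 46.6, 142 and 58.8 CPM in SUS libraries and 74.5, 41.8 and 67.8 CPM in naive libraries, and none was at 0. The 7 did not share an order: Chat was highest in SUS 2 at 76.9 CPM, whereas Slc5a7, the choline transporter gene, had 9.39 CPM there and was highest in RES 3 at 23 CPM. The summed level of 5 astrocyte markers was 978 to 3520 CPM, and that of 7 microglial markers was 917, 67.5 and 170 CPM in RES, 2240, 158 and 3780 CPM in SUS and 1290, 1560 and 179 CPM in naive libraries. None of the 7 was at 0 in any library. On this last measure 4 libraries (RES 2, RES 3, SUS 2 and naive 3) stood apart from the other 5. RES 3 also stood apart in scaling: its factor from trimmed mean (TMM) scaling was the highest, in a range of 0.743 to 1.58.

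The share of Gm10800 in total counts was 5.04%, 3.61% and 7.07% in RES libraries 1 to 3. In SUS libraries 1 to 3 it was 3.79%, 3.71% and 4.43%, and in naive libraries 1 to 3 it was 5.63%, 2.72% and 3.90%. RES 3 was highest and naive 2 lowest, the SUS libraries lay close together, and all 3 groups overlapped. It was the most counted gene of RES 3, number 5 in naive 2 and number 3 in the other 7. Over the 9 libraries the coefficient of variation was 29.4%, and the highest share was 2.6 times the lowest. For the 933 genes with a mean of at least 100 CPM, the median of that ratio was 2.44.

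The share of Gm26917 was 2.49%, 4.45% and 2.22% in RES libraries, 2.58%, 3.5% and 1.32% in SUS libraries and 2.76%, 3.52% and 3.89% in naive libraries. The highest and the lowest library, RES 2 and SUS 3, both had taken cocaine, and the naive libraries lay inside their range. The highest share was 3.37 times the lowest, with a coefficient of variation of 32.2%. It was number 2 among all genes in RES 2 and number 4 or 5 elsewhere.

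Gm23935 varied most of the 3. Its share was 3.04%, 1.26% and 0.910% in RES libraries, 3.35%, 1.78% and 3.27% in SUS libraries and 2.45%, 4.82% and 2.24% in naive libraries. Naive 2 was highest and RES 3 lowest, a ratio of 5.29, and the coefficient of variation was 46.8%. RES 2 and RES 3 were below every naive library and RES 1 was between them. Counting error was far below these differences: the 95% Wilson interval of the lowest Gm10800 share, in naive 2, was 2.704% to 2.734%. Such intervals cover counting error only, since reads without molecular identifiers are not independent molecules.

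**Figure D1:**
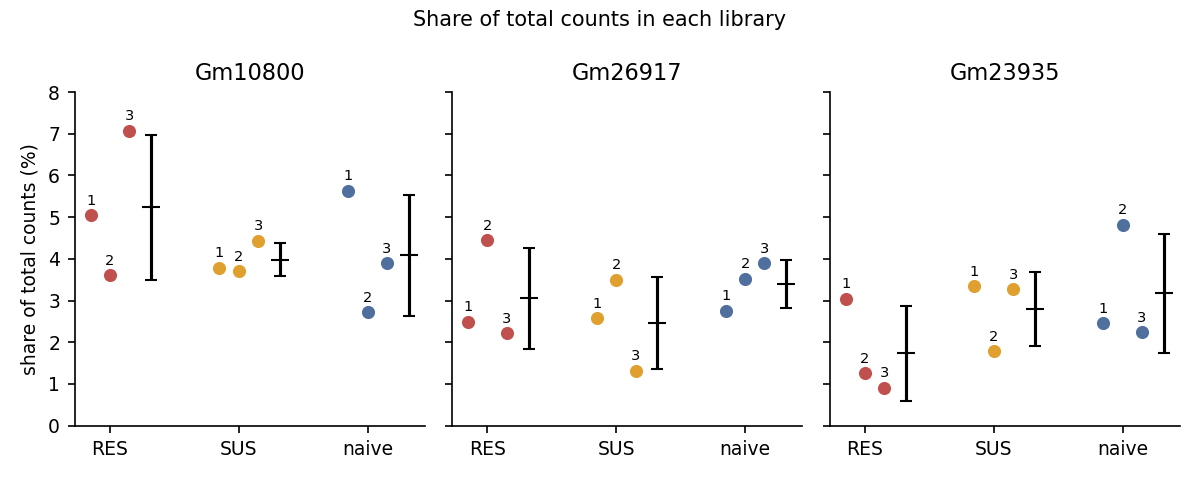
Share of total counts (%, vertical axis) of each gene model in the 9 libraries; points are libraries with their replicate number, grouped as RES, SUS and naive, and black bars are the group mean ± SD (n = 3). The groups overlap in all 3 panels, and Gm23935 spans 0.910% to 4.82%.

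Together the 3 gene models held 10.6%, 9.31% and 10.2% of counts in RES libraries, 9.71%, 9.0% and 9.02% in SUS libraries and 10.8%, 11.1% and 10.0% in naive libraries. The sum thus varied less than any of its parts, and the 3 SUS values lay below the 3 naive values. As the sum runs over genes chosen by their counts, it has no test. Of 39210 single genes, 2.44% also had every SUS share below every naive share. Of nuclear counts alone, that is, without the 37 mitochondrial genes, the sum was 14.8%, 10.5% and 11.2% in RES, 13.2%, 10.7% and 11% in SUS and 13.4%, 15.1% and 12.1% in naive libraries, where SUS and naive overlapped. Of nuclear counts, Gm23935 held 4.27%, 1.42% and 1.00% in RES, 4.54%, 2.12% and 3.97% in SUS and 3.03%, 6.60% and 2.71% in naive libraries.

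Per exonic kb, the levels were set against 1134 olfactory receptor genes, which few cells outside the nose use and whose 3660 kb of exons give a background density. Gm10800 had 184000 to 640000 counts per kb, 27000 to 41800 times the olfactory receptor density of its library. Gm26917 had 32100 to 124000 counts per kb, 1720 to 7800 times that density. For Gm23935 the value was 785000 to 6550000 counts per kb, 44500 to 622000 times that density, over an annotated length of only 57 bases.

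No group difference in share passed its test, and the groups overlapped for each gene model in each comparison. RES against naive averaged 5.24% ± 1.74 against 4.08% ± 1.46 for Gm10800, 3.05% ± 1.22 against 3.39% ± 0.573 for Gm26917 and 1.74% ± 1.14 against 3.17% ± 1.43 for Gm23935 (SD, n = 3 each). The differences in percentage points were 1.16 for Gm10800 (p = 0.5), -0.339 for Gm26917 (p = 0.8) and -1.43 for Gm23935 (p = 0.3), by two-sided exact permutation tests. With 3 against 3 libraries such a test cannot go below 0.1. Without RES 3 the Gm10800 difference was 0.243 points, and without naive 2 the Gm23935 difference was -0.61 points. Groups did not overlap for 0 of the 3, while across the 39210 genes tested every RES share lay above every naive share for 2.78% and below for 0.612%.

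For SUS, the mean shares were 3.98% ± 0.392 for Gm10800, 2.47% ± 1.10 for Gm26917 and 2.80% ± 0.883 for Gm23935 (SD, n = 3). The differences from naive were -0.107 percentage points for Gm10800 (exact permutation p = 0.8), -0.923 for Gm26917 (p = 0.2) and -0.37 for Gm23935 (p = 0.8). The groups overlapped for all 3 members, against 2.53% of genes with every SUS share above and 2.44% with every one below the naive shares. SUS minus RES was -1.26 points for Gm10800 (exact permutation p = 0.4), -0.585 for Gm26917 (p = 0.7) and 1.06 for Gm23935 (p = 0.2). Without RES 3 the Gm10800 difference was -0.351 points and without RES 2 it was -2.08, while that of Gm23935 was 1.72 points without RES 1. These groups also overlapped for all 3, beside 0.921% of genes with SUS wholly above and 3.6% with SUS wholly below RES.

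The 6 cocaine-taking libraries together averaged 4.61% ± 1.32 for Gm10800, 2.76% ± 1.08 for Gm26917 and 2.27% ± 1.08 for Gm23935 (SD, n = 6). Against the 3 naive libraries the differences were 0.525 points for Gm10800 (exact permutation p = 0.667), -0.631 for Gm26917 (p = 0.417) and -0.901 for Gm23935 (p = 0.31). Here the smallest possible p is 0.0119. Without naive 2 the Gm23935 difference was -0.0784 points. All 3 members overlapped between the groups, beside 0.416% of genes wholly above and 0.0816% wholly below naive. The 12 share differences carry unadjusted p-values, and none was below 0.2. The comparisons share libraries, so their values are not independent of each other.

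In the fit across all genes, edgeR's quasi-likelihood test with Benjamini-Hochberg adjustment called 0 of 39210 genes (0%) in each of the 4 comparisons, these 3 included. At an unadjusted p under 0.05 it listed 361 genes between RES and naive, 1225 between SUS and naive, 2227 between SUS and RES, and 541 between cocaine and naive. If no gene differed, a fraction of about 0.05 of the 39210 would pass that limit. The 3 numbers against naive are below that fraction and the number for SUS against RES is slightly above it. None of them is read as a group difference. DESeq2 also called 0 in each. The log2 fold changes of Gm10800 were 0.15 (RES over naive), -0.03 (SUS over naive), -0.19 (SUS over RES) and 0.06 (cocaine over naive). In the same order they were -0.34, -0.52, -0.18 and -0.43 for Gm26917, and -1.0, -0.30, 0.70 and -0.61 for Gm23935. All 12 had an adjusted p of at least 0.992 in edgeR.

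The edgeR standard errors of these values were 1.22 to 1.97, far wider than the spread of the 3 genes themselves. They come from a prior on the spread that follows abundance: the prior quasi-dispersion was 27.3 for Gm10800, 21.0 for Gm26917 and 19.7 for Gm23935, against a median of 0.8 over all genes. Without that trend, a setting chosen after seeing the data, RES against naive was 0.15 with SE 0.369 for Gm10800, -0.34 with SE 0.486 for Gm26917 and -1.0 with SE 0.629 for Gm23935. All 3 had an adjusted p of 1 in edgeR. DESeq2 gave the smallest p of the 12 to Gm23935 in RES against naive, -1.0 with SE 0.567, unadjusted p = 0.0777 and adjusted p = 1.

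**Figure D2:**
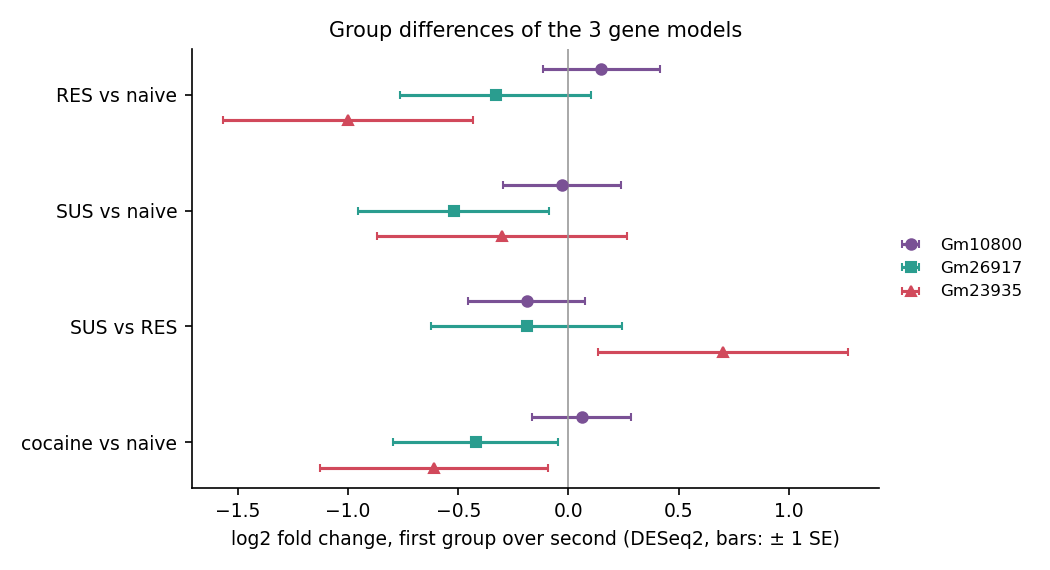
Log2 fold changes (horizontal axis, first group over second) of the 3 gene models in the 4 comparisons by DESeq2, with bars of ± 1 SE. The largest in size is Gm23935 in RES against naive, at -1.0 with SE 0.567, and no value passed the test.

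The scaling bears on these values. When libraries were scaled by total counts alone, the median log2 fold change of all genes was 0.231 between RES and naive, against -0.02 with TMM. It was -0.212 between SUS and RES, against 0.01, and 0.144 between cocaine and naive, against 0.01. Gm10800 in RES against naive was then 0.36 (SE 0.585), Gm26917 -0.15 (SE 0.565) and Gm23935 -0.87 (SE 0.574), with adjusted p = 1 for all 3 in edgeR. Shares of total counts are on this second scale.

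Next, Gm10800 was set beside the gene models that share its sequence. Gm10800 had 8.48 to 10.6 times the counts of Gm21738 in every library, and 9.84 to 13.5 times those of Gm10801. Gm21738 was also the gene whose level was most like that of Gm10800 over the 9 libraries, among 14621 genes with a mean of at least 10 CPM (r = 0.984 on log2(CPM + 1)). It had 5310, 3720 and 8340 CPM in RES libraries, 4240, 3860 and 4170 CPM in SUS libraries and 6310, 2890 and 4060 CPM in naive libraries. The 2 models thus kept a ratio of 8.48 to 10.6 while each was highest in RES 3 and lowest in naive 2.

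Against the sum of all 12 models, Gm10800 had 4.16, 4.11 and 4.16 times the counts in RES libraries, 3.69, 3.67 and 3.76 in SUS libraries and 3.83, 4.16 and 4.07 in naive libraries. The SUS ratios lay below all the others, and how often such a ratio sets 1 group apart was not counted. In SUS 2 and SUS 3 the lower ratio moved with 1 of the 12. Gm26870, a noncoding model on chromosome 9, had 0.0739%, 0.0616% and 0.0884% of counts in RES libraries, 0.0792%, 0.213% and 0.285% in SUS libraries and 0.0896%, 0.0408% and 0.0519% in naive libraries. SUS 2 and SUS 3 were high, and SUS 1 lay among the RES and naive values. Its log2 fold change for SUS against naive was 1.61 (SE 0.615, adjusted p = 1 in edgeR), and for SUS against RES 1.49 (SE 0.613, adjusted p = 0.87). Without Gm26870, left out after its values were seen, the ratios were 4.43, 4.42 and 4.38 in RES, 4.00, 4.65 and 4.96 in SUS and 4.08, 4.43 and 4.30 in naive libraries. SUS then overlapped both groups, though SUS 1 was still the lowest library.

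The copies of Gm23935 behaved otherwise. Gm24270, identical over all 57 bases, had 5686, 919 and 913 counts in RES libraries, 12676, 2400 and 6685 in SUS libraries and 9609, 9169 and 3179 in naive libraries. Gm23935 had 36.9, 62.5 and 49.0 times as many in RES, 29.5, 64.0 and 39.5 times in SUS and 17.7, 23.5 and 75.3 times in naive libraries. The ratio thus ranged 4.26-fold, with both ends in the naive group. In RES 2, RES 3, SUS 2 and naive 3, the libraries low in microglial markers, it was 49.0 to 75.3. Elsewhere it was 17.7 to 39.5. Against Gm24187, with 259 to 4749 counts, the ratio ran from 65.3 in naive 1 to 283 in naive 3. It was 148 to 283 in those low libraries and 65.3 to 130 in the others. The cause of this split was not tested. Gm24245, also identical, had 357 counts in all 9 libraries. Equal sequence inside the gene model therefore did not come with equal counts, and the bases around each copy were not used here.

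**Figure D3:**
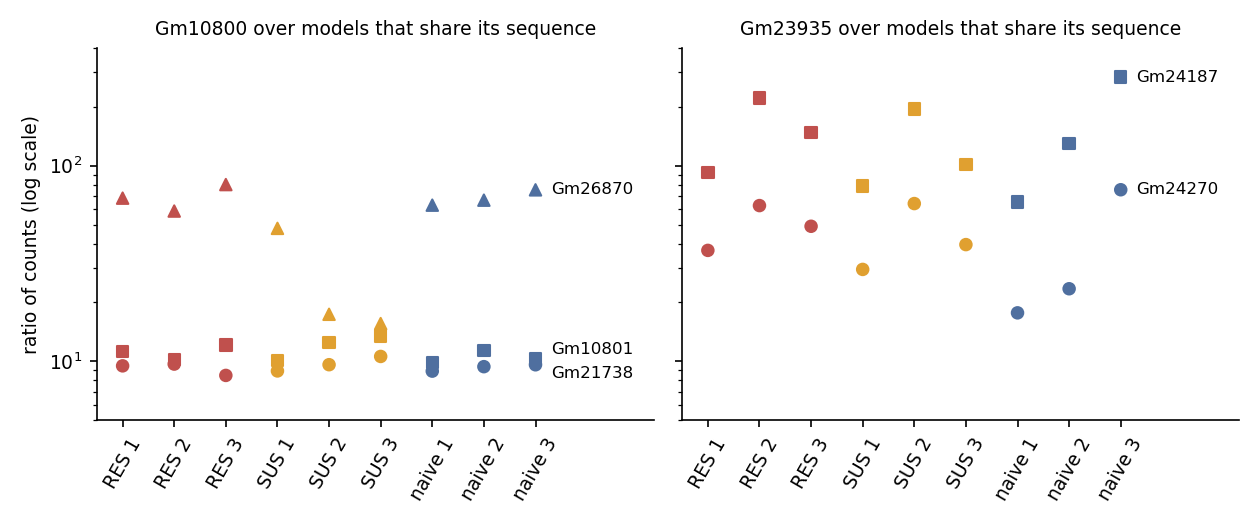
Counts of Gm10800 (left) and Gm23935 (right) divided by those of gene models that share their sequence, per library (log scale); colours stand for RES, SUS and naive from left to right. The ratio to Gm21738 stays between 8.48 and 10.6, that to Gm26870 drops to 15.6 in SUS 3, and that to Gm24270 spans 17.7 to 75.3.

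No pair of members had a correlation over the 9 libraries that passed the test. Between Gm10800 and Gm26917, Pearson's r of the shares was -0.53 (permutation p = 0.142) and Spearman's rho -0.68 (p = 0.0503). For Gm10800 and Gm23935, r was -0.54 (permutation p = 0.135) and rho -0.30 (p = 0.437). For Gm26917 and Gm23935, r was -0.20 (permutation p = 0.61) and rho -0.17 (p = 0.678). Without the 2 libraries farthest from the median of the first-named gene, r was -0.56, -0.25 and 0.26 for these pairs. Gm26917 had 0.404 times the counts of Gm23935 in SUS 3 and 3.54 times in RES 2. These are 3 of 12 relations computed, in all of which the shares have a common denominator, and adjusted over the 12 their Pearson p-values were 0.341, 0.341 and 0.794. Total counts gave r = -0.20 with Gm10800, -0.13 with Gm26917 and 0.10 with Gm23935, with adjusted permutation p = 0.794 for each.

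The share of Gm10800 followed the count density of olfactory receptor genes. That density was 1.83, 1.75 and 3.58 CPM per kb in RES, 1.61, 2.08 and 2.31 in SUS and 2.35, 1.36 and 1.98 in naive libraries. Pearson's r was 0.89 (exact permutation p = 0.00199, adjusted 0.0238) and Spearman's rho 0.80 (p = 0.0138, adjusted 0.083). Without RES 3 and naive 2, the libraries farthest from the median density, r was 0.55 (p = 0.198, exact permutation). The relation was thus weaker and did not pass without those 2 libraries. With 7 libraries over a narrower range, this cannot decide whether it holds among the rest. The next most alike genes after Gm21738 were Gm10610, a noncoding RNA gene (r = 0.972), and Olfr77, an olfactory receptor gene (r = 0.966). Olfr77 had 28.9 CPM in RES 3 and 11.9 CPM in naive 2, its highest and lowest values. For Gm26917, r with the same density was -0.45 (exact permutation p = 0.223, adjusted 0.447). For Gm23935 it was -0.65 (exact permutation p = 0.0621, adjusted 0.248), and 0.04 without the same 2 libraries.

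The share of Gm23935 followed that of the mitochondrial ribosomal RNAs. mt-Rnr1 and mt-Rnr2 together held 24.5%, 9.86% and 7.57% of counts in RES libraries, 22.4%, 13.6% and 14.2% in SUS libraries and 16.5%, 23.0% and 14.5% in naive libraries. Pearson's r with Gm23935 was 0.84 (exact permutation p = 0.00486, adjusted 0.0292) and Spearman's rho 0.82 (p = 0.0108, adjusted 0.083). Without RES 1 and naive 2, r was 0.86 (exact permutation p = 0.0121). The 3 genes most like Gm23935 were mitochondrial: mt-Nd5 (r = 0.971) and mt-Nd4 (r = 0.963), subunits of respiratory complex I, and mt-Co1 (r = 0.961), a subunit of complex IV. mt-Nd5 had 7490, 3670 and 3570 CPM in RES, 7580, 5040 and 7130 CPM in SUS and 5590, 7910 and 5620 CPM in naive libraries. The share of mitochondrial ribosomal RNA gave r = -0.40 with Gm10800 (exact permutation p = 0.287, adjusted 0.492) and -0.12 with Gm26917 (p = 0.767, adjusted 0.794).

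The share of Gm23935 also differed between the libraries with few and with many microglial and oligodendrocyte markers. In the 4 libraries with 67.5 to 179 CPM of the microglial markers its share was 0.910% to 2.24%. In the 5 with 917 to 3780 CPM it was 2.45% to 4.82%. Its copy Gm24270 was split by the same libraries, with 0.0186% to 0.0298% of counts in the 4 and 0.0825% to 0.205% in the 5. How many of all genes separate these 4 and 5 libraries was not counted, so the split is not shown to be particular to Gm23935. The same 4 libraries had 284 to 429 CPM of 5 oligodendrocyte markers, and the same 5 had 513 to 1520 CPM, with none of the markers at 0. The summed cholinergic, medium spiny neuron and astrocyte markers overlapped between these libraries. As the libraries fall into these separate clusters, no correlation with the marker level is given. Within the first 4, Gm23935 and the mitochondrial ribosomal RNAs had the same order: RES 3 lowest, then RES 2, SUS 2 and naive 3. Within the other 5 the order differed, since naive 1 had the lowest Gm23935 share at 2.45% but SUS 3 the lowest mitochondrial ribosomal RNA share at 14.2%. The microglial markers had another order than Gm23935 in both clusters. Of the 5, SUS 3 had the highest microglial level at 3780 CPM, but naive 2 the highest Gm23935 share, with 1560 CPM. Of the 4, RES 2 had the lowest microglial level at 67.5 CPM, but RES 3 the lowest Gm23935 share, with 170 CPM. Naive 3 was highest of the 4 in both, at 179 CPM and 2.24%. Naive 3 had the lowest oligodendrocyte level of the 4, at 284 CPM, but their highest Gm23935 share. With 4 and 5 libraries no correlation was computed within a cluster, so these orders are description only. The part of the cell mixture in the relation was not tested. In these bulk samples fewer cells of a type and less RNA per cell cannot be told apart.

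**Figure D4:**
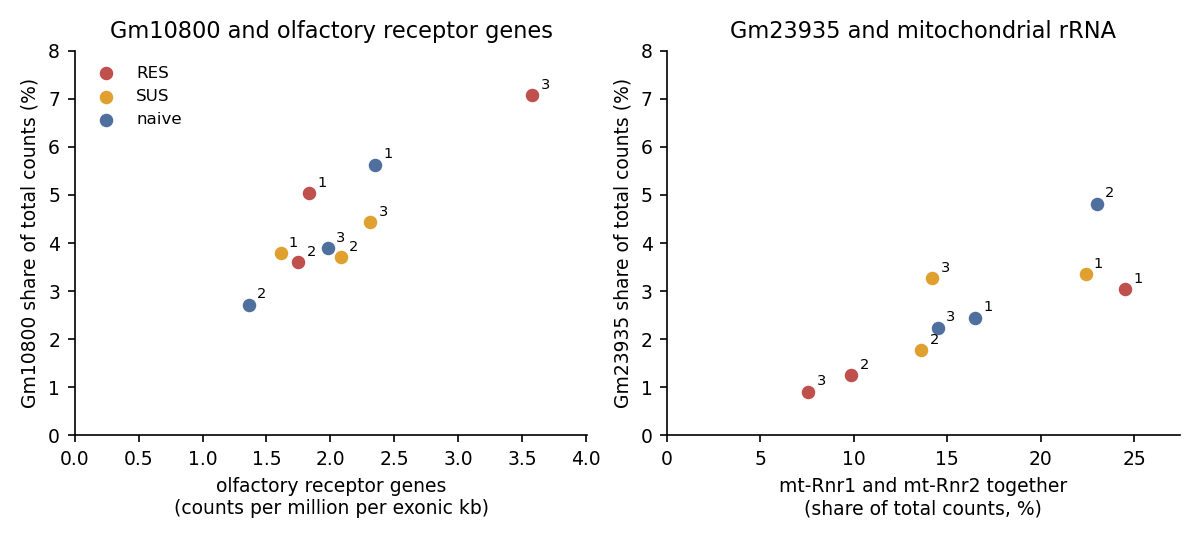
Left, the share of Gm10800 against the count density of 1134 olfactory receptor genes (r = 0.89, and 0.55 without RES 3 and naive 2). Right, the share of Gm23935 against the summed share of mt-Rnr1 and mt-Rnr2 (r = 0.84, and 0.86 without RES 1 and naive 2); each point is 1 of 9 libraries, coloured by group and marked with its replicate number.

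The genes most like Gm26917 were nuclear and protein-coding: Sh3glb2 (r = 0.988), which encodes an endophilin, a protein that binds membranes, Mapk1ip1 (r = 0.984) and Zfp512b (r = 0.983), which encodes a zinc finger protein. Sh3glb2 had 74.5, 118 and 57.8 CPM in RES libraries, 74.2, 106 and 39.8 CPM in SUS libraries and 82.4, 98.4 and 107 CPM in naive libraries. As for Gm26917, RES 2 was highest and SUS 3 lowest. These are the best of 14621 genes over 9 libraries, so the values describe likeness and carry no test.

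CT010467.1, the rRNA model beside Gm26917, did not share its pattern. It had 296, 113 and 61 counts in RES libraries, 1292, 255 and 1193 in SUS libraries and 454, 294 and 282 in naive libraries. SUS 1 and SUS 3 were highest, whereas Gm26917 was lowest in SUS 3. The log2 fold change of CT010467.1 for SUS against RES was 1.90 (SE 0.656, adjusted p = 0.87 in edgeR). Its lowest counts were in RES 3, RES 2, SUS 2 and naive 3, the libraries low in microglial markers. RES 2 and RES 3 are among these, but of SUS only SUS 2. The part of the cell mixture in this difference was not tested.

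The machinery around these sequences was read from lists. Of 20 genes of RNA polymerase I transcription, 20 of rRNA processing and the nucleolus, 20 of pericentromeric heterochromatin, 7 abundant structural noncoding RNAs that passed the filter on low counts (of 11) and 13 satellite-like gene models (of 14, Gm10800 included), 0 passed the edgeR test in any of the 4 comparisons, beside 0% of all genes. For RES against naive the median log2 fold changes were -0.08 for RNA polymerase I, -0.19 for rRNA processing, -0.21 for heterochromatin, -0.64 for structural noncoding RNAs and 0.08 for satellite-like models, against -0.02 for all genes. For SUS against naive they were 0.00, -0.04, 0.03, -0.03 and 0.11 in the same order, against 0.02. For SUS against RES they were 0.14, 0.20, 0.14, 0.60 and 0.06, against 0.01, and for cocaine against naive -0.03, -0.09, -0.06, -0.14 and 0.12, against 0.01. Of the 6 rDNA-like names, 4 were in the table and 2 passed the filter, namely Gm26917 and Gm23935 themselves, with medians of -0.67, -0.41, 0.26 and -0.52 in the 4 comparisons.

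Named here are some of the genes with the smallest p in their list, none of which passed the test. For SUS against RES, Npm1, which encodes the nucleolar protein nucleophosmin, had a log2 fold change of 1.04 (SE 0.461), Nop2, an rRNA methyltransferase gene, 0.79 (SE 0.372), and Cenpb, which encodes a protein that binds centromeric satellite DNA, 0.64 (SE 0.288). Suv39h1, which encodes a histone H3 lysine methyltransferase of pericentromeric heterochromatin, had 0.55 (SE 0.253) for SUS against RES and 0.59 (SE 0.253) for SUS against naive. The adjusted p was 0.87 in edgeR for each of the 4 in SUS against RES and 1 for Suv39h1 in SUS against naive. For RES against naive, Polr1c, which encodes a subunit of RNA polymerases I and III, was at 0.38 (SE 0.314), Ubtf, which encodes a factor that activates RNA polymerase I, at -0.45 (SE 0.412) and Rmrp, the RNA of an enzyme that cuts ribosomal RNA precursors, at -1.21 (SE 0.701), all 3 with adjusted p = 1 in edgeR.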

How the data were processed

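Gene expression was measured by RNA sequencing in 9 libraries of 3 groups. The authors deposited raw read counts per gene, without scaling. STAR 2.5.2b, HTSeq, FastQC, DESeq2, DESeq and the build GRCm38 are named in the submitters' processing notes; the strand setting, the annotation release and the treatment of reads with several sites are not given in the sources used here, and all 3 can change how many reads a repeat-like gene model receives. Positions and sequences came from GENCODE mouse release 21 and RefSeq (GRCm38.p6), where 52489 of the IDs matched GENCODE.

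From the deposited counts, shares of total counts were computed and compared by exact permutation tests written in Python with NumPy 2.4.6. The Wilson intervals came from SciPy 1.17.1. After filterByExpr and TMM scaling, genes were fitted with the edgeR quasi-likelihood test (edgeR 4.0.16, R 4.3.3) in 1 model of 3 groups, or of 2 groups for cocaine against naive, with Benjamini-Hochberg adjustment over 39210 genes at a threshold of 0.05. DESeq2 1.42.0, other scalings, no filter, a replicate block, logged shares and leaving out each library were the alternatives. Shared sequence means a common 25-base run. Total counts per library ran from 4471675 to 11155730, so counting error is small beside the spread between libraries. No 2 libraries were identical.

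Groups followed the sample titles. The members, the lists and the tests were chosen with earlier results of these data known. Named were the members, mt-Rnr1 and mt-Rnr2, gene models overlapping a member or within 20 kb, models sharing 50% or more of their 25-base runs (the 5 most counted), the 2 list genes of smallest p per list and, per member, the 3 genes most like it. The list genes given are some of those the rule took. The models that share less of their runs with Gm10800, and Malat1, were named after their values were seen.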

Additional observations from a re-analysis of the deposited data

How the results depend on the processing

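Of the log2 fold changes of the 3 gene models, all kept their direction and stayed uncalled under DESeq2, its size factors, total-count scaling, no filter, the replicate block and an edgeR prior without the abundance trend. The 1 change of a count was for SUS against RES, where scaling by total counts alone called 1 gene against 0, Gm28438 (log2 fold change 2.83, SE 0.52, adjusted p = 0.0491 in edgeR), named after its values were seen. On the log2 scale the share of Gm10800 in SUS against naive was 0.02, the opposite sign of the linear difference, with exact permutation p = 1.

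Leaving out each library in turn called 0 genes in every comparison and no member. It turned the sign of some share differences, which then ranged from -1.04 (without RES 2) to 0.0774 (without RES 3) for Gm26917 in RES minus naive, from -0.79 (without naive 2) to 0.665 (without naive 1) for Gm10800 in SUS minus naive, from -0.832 (without naive 3) to 0.453 (without naive 2) for Gm23935 in SUS minus naive, from -1.1 (without SUS 2) to 0.114 (without RES 2) for Gm26917 in SUS minus RES, and from -0.157 (without naive 2) to 1.3 (without naive 1) for Gm10800 in cocaine minus naive. Other share differences kept their sign but ranged from 0.243 to 1.97 for Gm10800 and -2.09 to -0.61 for Gm23935 in RES minus naive, -1.44 to -0.35 for Gm26917 in SUS minus naive, -2.08 to -0.351 for Gm10800 and 0.65 to 1.72 for Gm23935 in SUS minus RES, and -0.969 to -0.343 for Gm26917 and -1.36 to -0.0784 for Gm23935 in cocaine minus naive. Among log2 fold changes, Gm10800 ranged from -0.05 to 0.33 in RES against naive, -0.13 to 0.14 in SUS against naive, -0.37 to 0.02 in SUS against RES and -0.04 to 0.24 in cocaine against naive. Gm26917 ranged from -0.51 to 0.21 in SUS against RES, and Gm23935 from -0.59 to 0.41 in SUS against naive and -0.87 to 0.10 in cocaine against naive. The cause was not tested. Gm23935 in RES against naive stayed below 0, from -2.0 (without RES 1) to -0.29 (without naive 2).

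The replicate numbers were also tried as a block. Deviations of same-numbered libraries correlated at -0.211 to 0.215 over 9 pairs, 2 of them over 0.1. In 3 of 18 cases a library was best with its own number. No pairing by number was thus seen, but with groups of 3 libraries this check cannot exclude one. With the block, Gm23935 was at -1.27 in RES against naive (SE 1.46, against 1.75 without it). It was at 1.00 in SUS against RES (SE 1.41, against 1.75), and 0 genes were called in each comparison.

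Counting error is small beside the differences in share between libraries.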

Other observations

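Malat1, the sixth gene by summed count and a long noncoding RNA kept in the nucleus, held 2.11%, 2.30% and 0.908% of counts in RES libraries, 1.83%, 1.72% and 0.947% in SUS libraries and 1.98%, 2.21% and 1.74% in naive libraries. RES 3 and SUS 3 were lowest for Malat1, and they were also the 2 lowest for Gm26917, at 2.22% and 1.32%. In RES 3, Gm10800 had its highest share and mt-Rnr2 its lowest, 5.05%, so that Gm10800 passed mt-Rnr2 in this library only among the 9.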
